A study of Saccharomyces cerevisiae with 12 samples.

Results

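The 49 genes described here encode the machinery of mRNA decay in *Saccharomyces cerevisiae*: 19 genes of 5′-3′ decay and decapping, 3 of nonsense-mediated decay (NMD), 11 of deadenylation and 16 of the exosome and SKI complexes. They were chosen by name and function, with earlier results of these data known but with no measured value in the rule, and all 49 were found among the 6302 genes of the count table. Of these, 37 had enough reads to be tested and 12 did not. The reads come from 5PSeq, a method that sequences RNA molecules carrying a 5′ monophosphate and so counts mRNAs already on the way to degradation. A change in the 5PSeq reads of a gene can therefore not be told apart from a change in the amount of its mRNA, because no mRNA level was used here.

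The study asked how losing tRNA modifications and the ribosome-associated quality control pathway (RQC) changes translation and mRNA decay. There were 4 strains with 3 replicates each, all labelled BY4741, of mating type a and carrying the alleles his3Δ1, leu2Δ0 and ura3Δ0, and all grown in YPD at 30 °C with shaking at 200 rpm. The genotype of the wild type also lists met15Δ0, which those of the other 3 strains do not. In *hel2*∆ the gene of the E3 ubiquitin ligase that marks collided ribosomes was replaced (hel2Δ::LEU2). In *ncs2*∆*elp6*∆ both branches of wobble uridine (U34) modification were removed, thiolation with ncs2Δ::HIS3MX and the Elongator branch with elp6Δ::URA3. The triple mutant *ncs2*∆*elp6*∆*hel2*∆ carries all of these deletions. Nothing in the labels says that replicates came from separate cultures or clones, so p-values measure only the spread between these libraries, which may be technical.

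Most yeast mRNAs are degraded in an ordered way. The Ccr4-Not and Pan2-Pan3 complexes first shorten the poly(A) tail, the Lsm1-7 ring with Pat1 then binds the shortened end and helps Dcp1-Dcp2 to remove the cap, and the exonuclease Xrn1 digests the decapped RNA from its 5′ end. The exosome, assisted in the cytoplasm by the SKI complex, degrades RNA from the 3′ end, and the Upf proteins direct transcripts with premature stop codons to decapping. Xrn1 acts on the same 5′ monophosphate ends that 5PSeq captures.

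The depth was low, with 104202 to 415323 reads per library and a median of 215412. The median tested member had 33 reads per library. Reads on *NCS2* and *HEL2* followed the labels. *NCS2* had 18 reads over the 3 wild-type libraries and 15 in *hel2*∆, but 0 in *ncs2*∆*elp6*∆ and 2 in the triple mutant, and *HEL2* had 48 and 89 reads where it was present against 8 and 5 where it was deleted. *ELP6* had 20 wild-type reads, 20 in *hel2*∆, 4 in *ncs2*∆*elp6*∆ and 10 in the triple mutant, so some reads on the deleted loci remained. Of the genes that the markers are named after, *HIS3* had 8 wild-type reads, 7 in *hel2*∆, 20 in *ncs2*∆*elp6*∆ and 19 in the triple mutant, and *LEU2* had 1, 10, 1 and 7 in that order. Whether the HIS3MX cassette gives reads on *HIS3* was not tested, so the *HIS3* counts are no check of the ncs2Δ::HIS3MX label. *URA3*, the marker named for the *ELP6* deletion, had 1, 0, 0 and 1 reads, so its reads did not mark the strains labelled elp6Δ::URA3. *MET17*, the gene of the met15 locus, had 28 reads in the wild type and 38 to 62 in the other strains. Across genes, triple mutant replicate 2, the deepest library, correlated with *ncs2*∆*elp6*∆ replicate 3 at r = 0.95 and with its own replicates at r = 0.92. Triple mutant replicate 3 correlated with *hel2*∆ replicate 3 at r = 0.92, as closely as with its own replicates.

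As a whole, the 49 genes took a nearly constant share of the reads, 0.903% to 1.12% of a library. *LSM2* alone, which encodes a subunit shared by the cytoplasmic Lsm1-7 ring and the nuclear Lsm2-8 ring that binds U6 RNA, accounted for 27.2% ± 5.28 of the members' reads in the wild type and 30.8% ± 3.41 in *hel2*∆ (SD, n = 3). In *ncs2*∆*elp6*∆ its part was 9.09% ± 2.74 and in the triple mutant 20.4% ± 6.63. The other 48 genes together made up 0.717% ± 0.0489 of wild-type libraries, 0.731% ± 0.0748 of *hel2*∆ libraries, 0.850% ± 0.00912 in *ncs2*∆*elp6*∆ and 0.788% ± 0.0837 in the triple mutant. The lowest *ncs2*∆*elp6*∆ library, at 0.841%, lay above the highest wild-type library, at 0.750%, but this difference in shares of library totals was not seen after the TMM scaling used for all levels below. On that scale the 48 genes summed to 7920.2 ± 603 CPM (reads for each 1000000 of a library) in the wild type, to 8210.3 ± 498 in *hel2*∆, 7853 ± 256 in *ncs2*∆*elp6*∆ and 7855 ± 356 in the triple mutant, with overlapping libraries. *LSM2* was lower in *ncs2*∆*elp6*∆ on both scales.

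**Figure D1:**
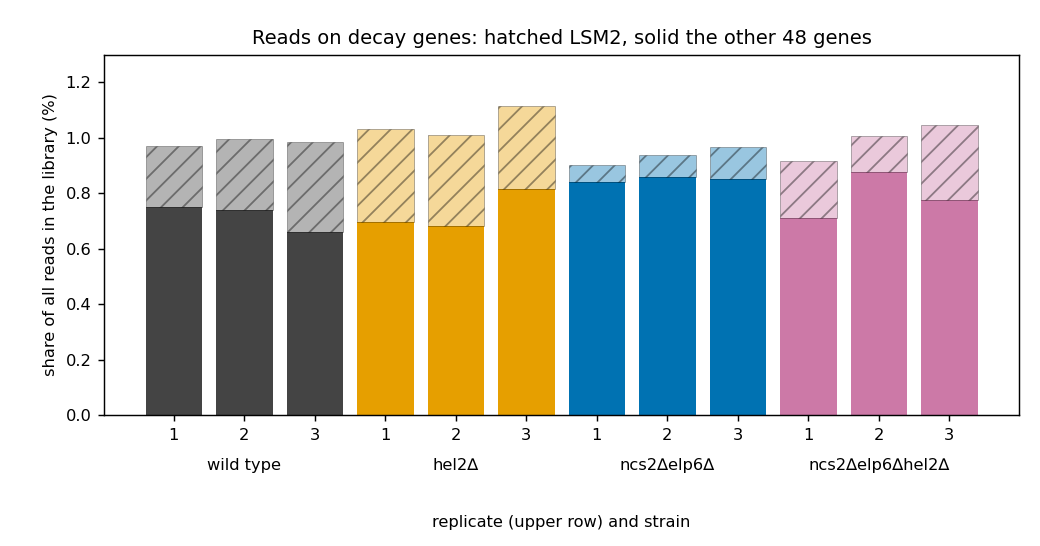
Share of each library's reads, in percent, that fell on the 49 decay genes, for replicates 1 to 3 of each strain. The hatched part is *LSM2* and the solid part the other 48 genes. The full bars lie between 0.903% and 1.12%, while the *LSM2* part is smallest in the 3 *ncs2*∆*elp6*∆ libraries.

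Levels per kilobase of gene span spread widely over the members. Levels are given in CPM scaled by TMM (the trimmed mean of M-values, a normalization that assumes most genes do not change). *LSM2* stood far above the others at 7157 CPM per kilobase in the wild type, which ranked it 11th of 5772 genes with a known span, 7th in *hel2*∆, 36th in *ncs2*∆*elp6*∆ and 9th in the triple mutant. *SBP1*, which encodes an RNA-binding repressor of translation that promotes decapping, came next in every strain, with 546 CPM per kilobase in the wild type. The median member was at 62.5 CPM per kilobase in the wild type, against 38.4 for all genes. Over all libraries *CDC39*, the scaffold of Ccr4-Not, led the deadenylation genes at 181 and *CAF130* was lowest at 28.8. *NMD2* and *UPF3* bounded the NMD genes at 71.96 and 31.25, and *RRP6* and *SKI6* the exosome and SKI genes at 100.4 and 11.4 CPM per kilobase. *LSM7*, at 11.7, was the lowest of the 5′-3′ decay genes.

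**Figure D2:**
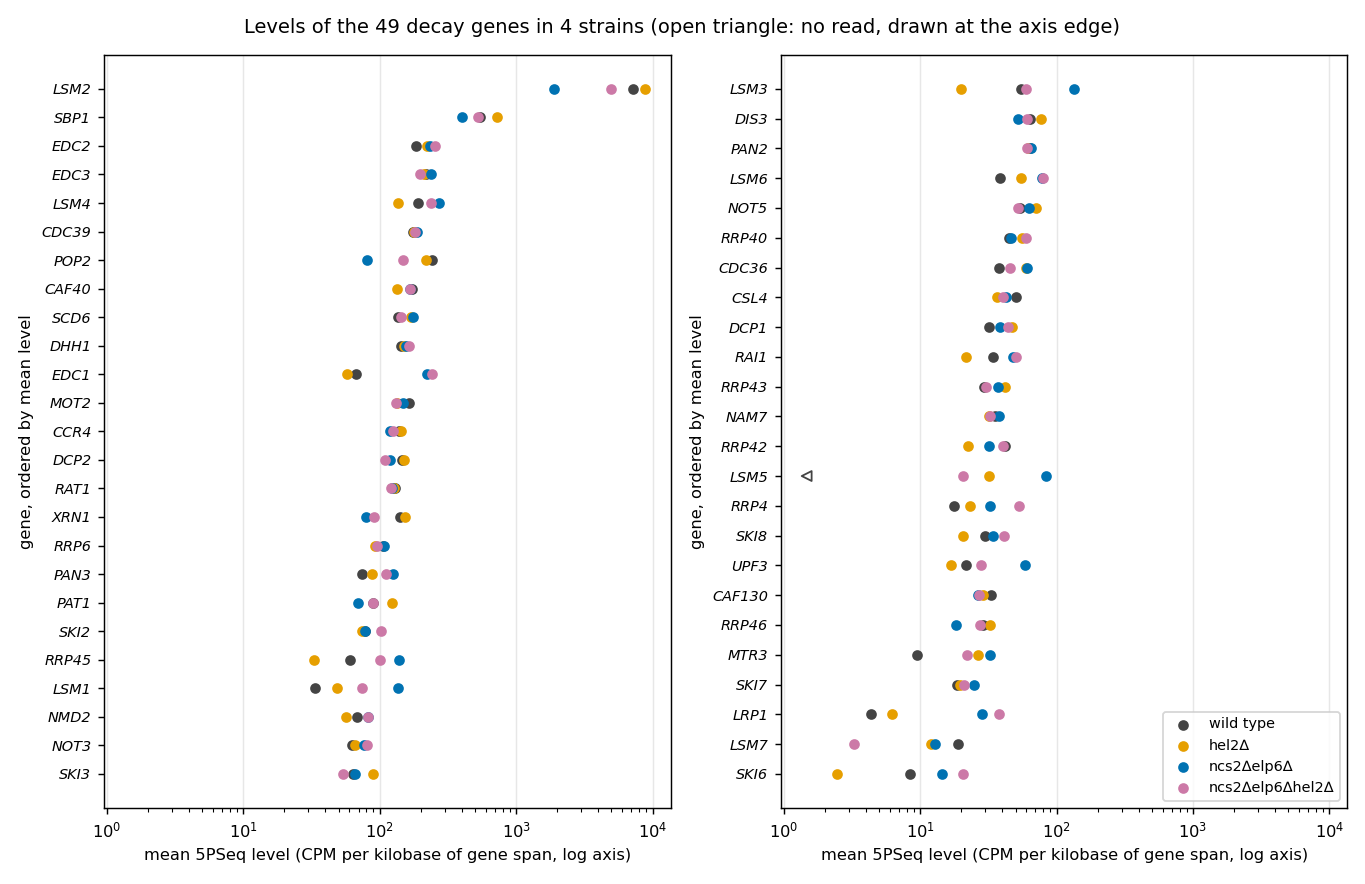
Mean 5PSeq level of the 49 decay genes in CPM per kilobase of gene span, on a log axis, ordered by the mean over all libraries. Each point is the mean of 3 libraries of 1 strain, and the open triangle marks *LSM5* in the wild type, which had no read. *LSM2* lies apart from all other members in every strain.

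Deleting *HEL2* alone moved no member past the threshold. In *hel2*∆ against the wild type 0 of the 37 tested members were called by edgeR's quasi-likelihood test (Benjamini-Hochberg adjusted p under 0.05, adjusted over all 3378 genes tested), beside 0.0888% of all genes. At an unadjusted p under 0.05 it was also 0 members, beside 4.17% of all genes, and DESeq2 called 0 members as well. The median log2 fold change of the members was -0.0039, beside -0.0080 over all genes. For 25 of the 37 members the 95% interval lay within a 2-fold change either way, beside 56.5% of all genes, and for the other 12 members it reached past 2-fold. Split by direction, 0 members were higher and 0 lower, beside 0.0296% and 0.0592% of all genes. Libraries of *hel2*∆ lay wholly above the wild type for 2 tested members, *PAT1* and *SKI3*, and wholly below for 0, beside 4.8% and 5.36% of all genes. The member with the smallest p was *SKI3*, the scaffold of the SKI complex. All 3 *hel2*∆ libraries lay above the wild type there, at 322, 454 and 370 against 236, 315 and 277 CPM, with a log2 fold change of 0.45 (SE 0.22, adjusted p = 0.980).

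Losing U34 modification moved more members, in both directions. In *ncs2*∆*elp6*∆ against the wild type 7 of 37 members were called, which is 18.9% beside 30.1% of all genes. *EDC1*, *LSM1*, *PAN3* and *RRP45* were higher (4 of 37, beside 13.4% of all genes) and *XRN1*, *LSM2* and *POP2* were lower (3 of 37, beside 16.7%). *EDC1* and *LSM1* passed the filter on low counts only because of strains without U34 modification, where they were high. The filter, which was the same for all genes, thus favoured calling *EDC1* and *LSM1* higher. At an unadjusted p under 0.05 it was 9 members, beside 40.7% of all genes. The median of the members was 0.09 and that of all genes 0.04 on the log2 scale, and the 95% interval lay within a 2-fold change for 21 members, beside 37.9% of all genes. Libraries did not overlap for 5 higher and 4 lower members, beside 21.3% and 22.3% of all genes. The called genes were 4 of 14 tested genes of 5′-3′ decay and decapping, 0 of 3 of NMD, 2 of 10 of deadenylation and 1 of 10 of the exosome and SKI complexes. With 3 libraries in each strain, an exact permutation test of a single gene cannot go below p = 0.10, and all adjusted p-values below are from edgeR.

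**Figure D3:**
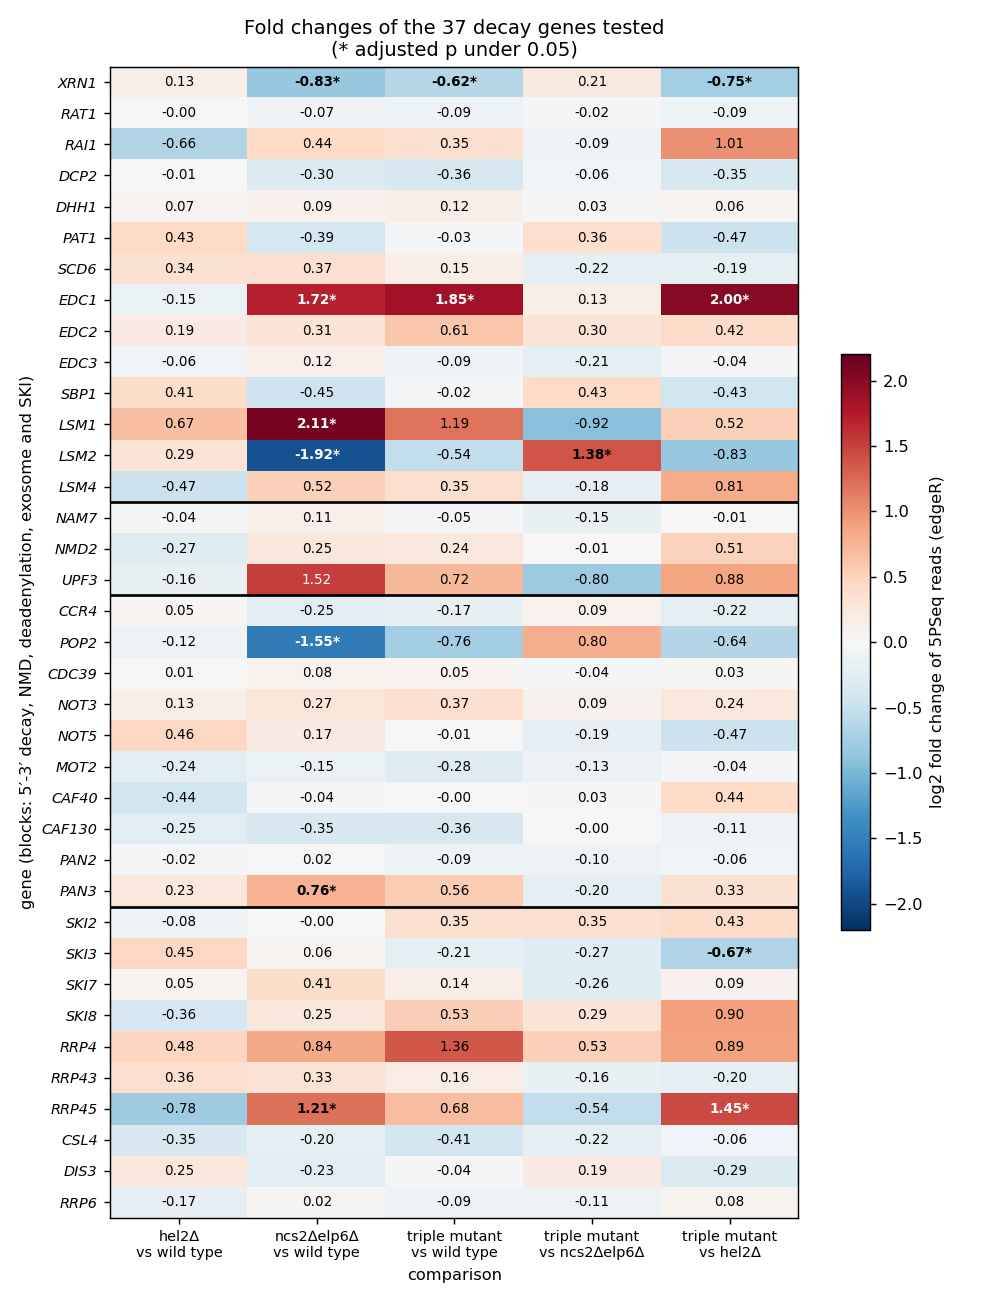
Log2 fold changes of 5PSeq reads (edgeR) for the 37 decay genes tested, 1 row per gene and 1 column per comparison, with an asterisk where the adjusted p is under 0.05. Black lines separate 5′-3′ decay, NMD, deadenylation, and exosome and SKI genes. The *hel2*∆ column holds no call and the *ncs2*∆*elp6*∆ column holds 7, among them -1.92 for *LSM2* and 2.11 for *LSM1*.

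Among the exonucleases, *XRN1* (YGL173C, chromosome VII, 175527 to 180113 in assembly R64), the main cytoplasmic 5′-3′ exonuclease, had fewer reads without U34 modification. Its level was 567, 807 and 561 CPM in the wild type and 639, 761 and 718 in *hel2*∆. It was 366, 319 and 402 CPM in *ncs2*∆*elp6*∆ and 393, 415 and 438 in the triple mutant. Neither of the strains without U34 modification overlapped either of the strains with it. Against the wild type *XRN1* fell by 0.83 on the log2 scale in *ncs2*∆*elp6*∆ (SE 0.20, adjusted p = 0.00251) and by 0.62 in the triple mutant (SE 0.20, adjusted p = 0.0463), and it fell by 0.75 in the triple mutant against *hel2*∆ (SE 0.20, adjusted p = 0.0157). The first of these calls held without each library in turn. The second was also lost under 7 of 9 other settings and was kept in only 2 of those 12 fits, without wild-type replicate 1 or *ncs2*∆*elp6*∆ replicate 2, and the value without wild-type replicate 2 was -0.43 (adjusted p = 0.259). The last was lost without *hel2*∆ replicate 2 or without triple mutant replicates 1 or 2, with adjusted p-values up to 0.0670. *RAT1*, the nuclear counterpart of *XRN1*, stayed between 334 and 416 CPM in all 12 libraries, with a log2 fold change in *ncs2*∆*elp6*∆ of -0.07 and a 95% interval from -0.46 to 0.32.

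The decapping enzyme itself gave no call. *DCP2*, the catalytic subunit, was at 481, 363 and 422 CPM in the wild type, at 295, 579 and 432 in *hel2*∆, at 251, 376 and 407 in *ncs2*∆*elp6*∆ and 272, 404 and 288 in the triple mutant. All 4 strains overlapped, and the log2 fold change in *ncs2*∆*elp6*∆ was -0.30 (95% interval -0.80 to 0.20). *DHH1*, the DEAD-box helicase that activates decapping and that the study lists among its RQC targets, was at 199.6, 342 and 117 CPM in the wild type. It was at 207, 216 and 260.2 CPM in *hel2*∆. It was at 315, 187 and 205 CPM in *ncs2*∆*elp6*∆ and 313, 216 and 217 in the triple mutant, and all strains overlapped. Its largest fitted difference among the pairwise comparisons was 0.12 on the log2 scale, for the triple mutant against the wild type (95% interval -0.48 to 0.73). *PAT1*, the partner of the Lsm1-7 ring, was at 240.5, 233 and 167 CPM in the wild type and 278, 318 and 286 in *hel2*∆. It was at 195, 117 and 185 CPM in *ncs2*∆*elp6*∆ and 212, 181 and 248 in the triple mutant, and it was not called in any comparison (0.43 in *hel2*∆ and -0.39 in *ncs2*∆*elp6*∆, both against the wild type), although the *hel2*∆ libraries lay above those of every other strain.

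*EDC1* (YGL222C, chromosome VII, 80659 to 81186), which encodes a small activator of Dcp2, was called in all 3 comparisons of a strain without U34 modification with one that has it. It was at 36.3, 34.2 and 36.4 CPM in the wild type and 16.4, 22.7 and 52.05 in *hel2*∆. It was at 115, 147 and 88.5 CPM in *ncs2*∆*elp6*∆ and 101, 124 and 155 in the triple mutant. The strains with and without U34 modification did not overlap. The change was 3.28-fold in *ncs2*∆*elp6*∆ against the wild type (log2 1.72, SE 0.37, adjusted p = 8.18e-04), 3.60-fold in the triple mutant against the wild type (log2 1.85, SE 0.37, adjusted p = 0.00194) and 3.99-fold in the triple mutant against *hel2*∆ (SE 0.39 on the log2 scale, adjusted p = 0.00134). All 3 calls held without each library in turn, although the last rose to 2.76 on the log2 scale without *hel2*∆ replicate 3. These values rest on 18 wild-type reads, 15 in *hel2*∆, 100 in *ncs2*∆*elp6*∆ and 102 in the triple mutant. Without the strains that lack U34 modification *EDC1* would not have passed the filter on low counts, so the filter favoured calls in this direction. In the fit with no count filter *EDC1* was called in the same 3 comparisons. The comparisons share libraries and are not independent of each other.

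The other activators gave no call in any comparison. *EDC2* and *EDC3*, both enhancers of decapping, changed by 0.31 and 0.12 on the log2 scale in *ncs2*∆*elp6*∆, and *SCD6*, a repressor of translation initiation, by 0.37. *SBP1*, listed by the study as an RQC target, was at 445, 554 and 451 CPM in the wild type and 535, 693 and 703 in *hel2*∆. It was at 326, 325 and 407 CPM in *ncs2*∆*elp6*∆ and 373, 495 and 531 in the triple mutant. The *ncs2*∆*elp6*∆ libraries lay below those of the wild type, but the difference of -0.45 did not pass the threshold (SE 0.21, adjusted p = 0.1002). Those of the triple mutant lay below *hel2*∆, by 0.43, which was not called either (adjusted p = 0.162).

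The Lsm1-7 ring held the 2 tested members with the largest fold changes in *ncs2*∆*elp6*∆ against the wild type, and they moved in opposite directions. *LSM2* (YBL026W, chromosome II, 170623 to 171038) was at 2250.4, 2997 and 3684 CPM in the wild type and 3767, 3976 and 3206 in *hel2*∆. It was at 601, 683 and 1079 CPM in *ncs2*∆*elp6*∆ and 2158, 1185 and 2832 in the triple mutant. All *ncs2*∆*elp6*∆ libraries were the lowest, and those of the triple mutant lay above them, overlapping the wild type but not *hel2*∆. *LSM2* was 3.78-fold lower in *ncs2*∆*elp6*∆ than in the wild type (log2 -1.92, SE 0.30, adjusted p = 2.20e-05), a call kept without each library in turn. It was 2.60-fold higher in the triple mutant than in *ncs2*∆*elp6*∆ (log2 1.38, SE 0.29, adjusted p = 0.00565). That was the only member called in this comparison, 1 of 37 beside 5.68% of all genes. It was 1 of 37 higher and 0 lower, beside 4.68% and 1.01% of all genes, and at an unadjusted p under 0.05 it was 4 members, beside 19% of all genes. The 95% interval lay within a 2-fold change for 28 members, beside 58.3% of all genes, and libraries did not overlap for *LSM2* (higher) and *LSM1* (lower), beside 14.1% and 8.14%. The call was lost without *ncs2*∆*elp6*∆ replicate 2 (log2 1.23, adjusted p = 0.0515) or without triple mutant replicate 3 (log2 1.07, adjusted p = 0.0741). In *hel2*∆ against the wild type the difference was 0.29 (SE 0.28), and in the triple mutant against *hel2*∆ it was -0.83 and narrowly missed the threshold (adjusted p = 0.0519). With DESeq2 that last difference passed. The interaction, which asks whether the effect of *HEL2* deletion differed with U34 modification lost, was 1.09 on the log2 scale and not called (SE 0.41, adjusted p = 0.310). Without triple mutant replicate 2, the library closest to *ncs2*∆*elp6*∆ across genes, the interaction was 1.32 (SE 0.36, adjusted p = 0.0438). The part of that library's likeness in the result was not tested. No other alternative fit called *LSM2* in the interaction, and the fit without that library called 92 genes, against 1 with all libraries. In the interaction 0 of 37 members were called by edgeR and by DESeq2, beside 0.0296% of all genes by edgeR, and 4 members (*LSM2*, *SKI3*, *POP2* and *LSM1*) had an unadjusted p under 0.05, beside 9.71% of all genes. The 95% interval of the interaction lay within a 2-fold change for 15 members, beside 25.7% of all genes.

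*LSM1* (YJL124C, chromosome X, 187126 to 187644), the subunit that sets the cytoplasmic decay ring apart from the nuclear one, was at 9.07, 6.84 and 36.4 CPM in the wild type and 27.3, 22.7 and 26.02 in *hel2*∆. It was at 55.7, 90.3 and 64.4 CPM in *ncs2*∆*elp6*∆ and 40.3, 34.9 and 39.8 in the triple mutant. All *ncs2*∆*elp6*∆ libraries lay above every other library. The change against the wild type was 4.32-fold (log2 2.11, SE 0.49, adjusted p = 0.00172), from 8 wild-type and 60 *ncs2*∆*elp6*∆ reads, and without wild-type replicate 3 it was 3.03 on the log2 scale. *LSM1* passed the filter on low counts only through the *ncs2*∆*elp6*∆ libraries, where it was high. The filter thus favoured a call in this direction. In the fit with no count filter *LSM1* was called in this comparison as well. The triple mutant differed from the wild type by 1.19 (adjusted p = 0.173). *LSM4*, the only other ring subunit with enough reads, was at 107 ± 14.5 CPM in the wild type and 154 ± 20.1 in *ncs2*∆*elp6*∆ (SD, n = 3), a log2 difference of 0.52 that was not called (adjusted p = 0.175), although the libraries did not overlap. The ring genes other than *LSM2* summed to 158 ± 7.48 CPM in the wild type, to 137 ± 56.1 in *hel2*∆, 310 ± 71.7 in *ncs2*∆*elp6*∆ and 216 ± 31.8 in the triple mutant. Both strains without U34 modification lay above the wild type in that sum, with no overlap. The triple mutant, at 182 to 244 CPM, overlapped *hel2*∆, at 87.3 to 198. With *LSM2* included the ring went the other way, from 3135 ± 723 CPM in the wild type to 1098 ± 276 in *ncs2*∆*elp6*∆, with no overlap.

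**Figure D4:**
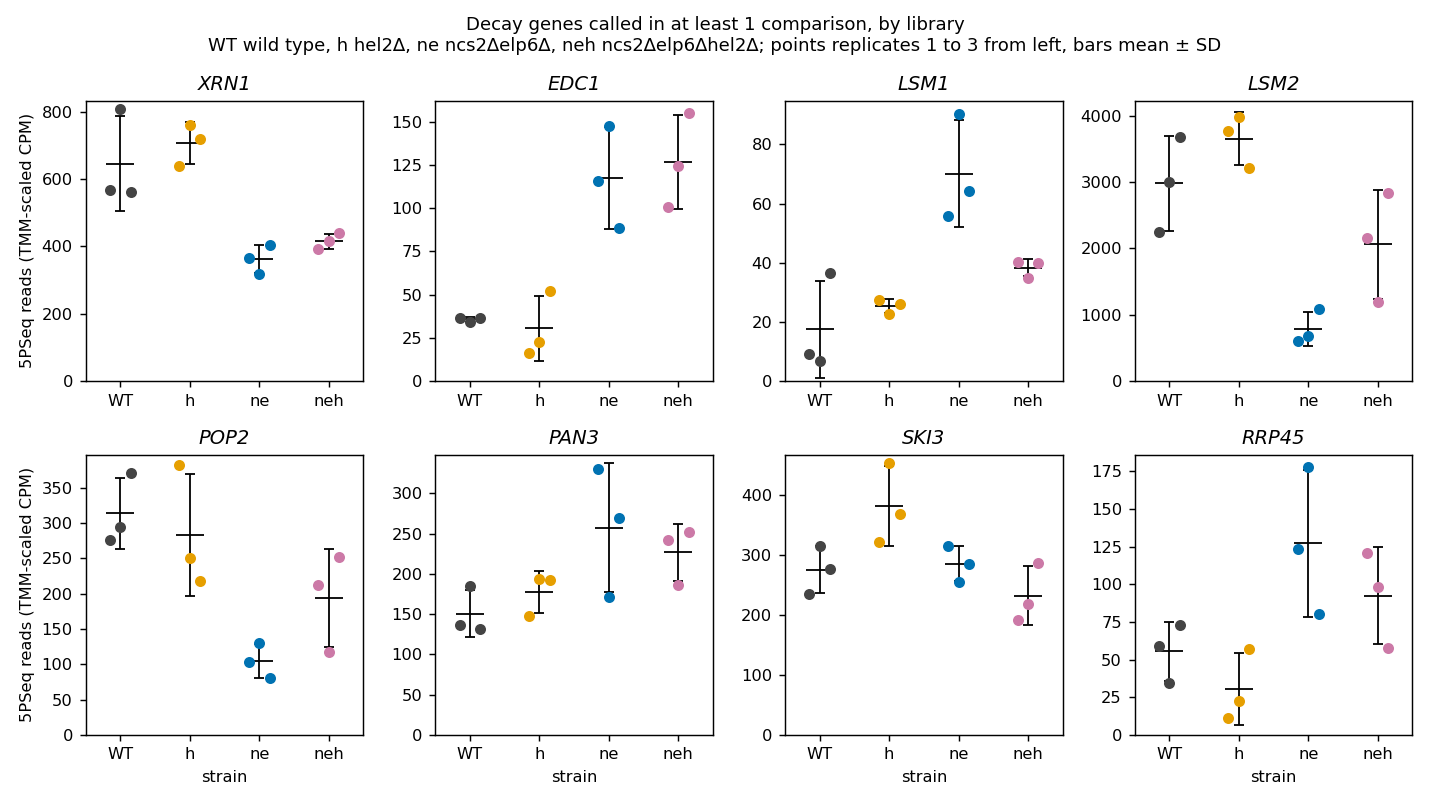
5PSeq levels in TMM-scaled CPM of the 8 decay genes called in at least 1 comparison. Points are libraries (replicates 1 to 3 from the left) of the wild type (WT), *hel2*∆ (h), *ncs2*∆*elp6*∆ (ne) and the triple mutant (neh), and bars are the mean ± SD. *EDC1* separates the strains with and without U34 modification, whereas *LSM2* is low in *ncs2*∆*elp6*∆ and spread widely in the triple mutant, from 1185 to 2832 CPM.

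None of the 3 NMD genes was called in any comparison. *NAM7*, which encodes the helicase Upf1, was at 86.2, 157 and 65.5 CPM in the wild type and 104, 56.8 and 119.7 in *hel2*∆. It was at 111, 99.3 and 121 CPM in *ncs2*∆*elp6*∆ and 80.7, 107 and 97.3 in the triple mutant, so the strains overlapped. *NMD2* (Upf2) was at 286, 219 and 182 CPM in the wild type and 169, 182 and 224 in *hel2*∆. It was at 287, 286 and 258 CPM in *ncs2*∆*elp6*∆ and 282, 264 and 283 in the triple mutant, which lay above *hel2*∆ (log2 0.51, adjusted p = 0.134). *UPF3*, the least abundant of the 3, was at 18.1, 20.5 and 36.4 CPM in the wild type and 16.4, 11.4 and 31.2 in *hel2*∆. It was at 43.8, 96.3 and 64.4 CPM in *ncs2*∆*elp6*∆ and 30.3, 67.7 and 0 in the triple mutant, where replicate 3 had no read. The *ncs2*∆*elp6*∆ libraries lay above those of the wild type with a log2 difference of 1.52 that missed the threshold (SE 0.62, adjusted p = 0.0652), from 12 and 59 reads. It passed in some other fits, for example without *ncs2*∆*elp6*∆ replicate 1 (adjusted p = 0.0480) or without triple mutant replicates 2 (0.0222) or 3 (0.0146). *UPF3* too was let through the filter on low counts only by libraries of strains without U34 modification.

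Of the deadenylation genes, *POP2* (YNR052C, chromosome XIV, 719346 to 720647), the Caf1 nuclease of Ccr4-Not, was lower without U34 modification. It was at 277, 294 and 371 CPM in the wild type and 382, 249.9 and 219 in *hel2*∆. It was at 104, 129 and 80.5 CPM in *ncs2*∆*elp6*∆ and 212, 118 and 252 in the triple mutant. All *ncs2*∆*elp6*∆ libraries lay below those of both strains with U34 modification, and the triple mutant overlapped both *ncs2*∆*elp6*∆ and *hel2*∆ but not the wild type. Against the wild type *POP2* was 2.94-fold lower in *ncs2*∆*elp6*∆ (log2 -1.55, SE 0.29, adjusted p = 1.84e-04), and this call held without each library in turn. The triple mutant differed from the wild type by -0.76 (adjusted p = 0.0865), from *ncs2*∆*elp6*∆ by 0.80 (adjusted p = 0.120) and from *hel2*∆ by -0.64 (adjusted p = 0.137), none of them called. Without triple mutant replicate 2 the second of these was 1.10 (adjusted p = 0.0117), and without its replicate 3 the first and last were -1.09 (adjusted p = 0.0142) and -0.97 (adjusted p = 0.0258).

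*PAN3* (YKL025C, chromosome XI, 390240 to 392279), the regulatory subunit that brings the Pan2 nuclease to its substrates, was at 136, 185 and 131 CPM in the wild type and 147, 193 and 193 in *hel2*∆. It was at 330.4, 172 and 269.7 CPM in *ncs2*∆*elp6*∆ and 242, 186 and 252 in the triple mutant. Replicate 2 of *ncs2*∆*elp6*∆ lay within the wild-type range. The log2 difference of 0.76 between *ncs2*∆*elp6*∆ and the wild type (SE 0.26, adjusted p = 0.0289) was lost with DESeq2 (adjusted p = 0.0680), and without wild-type replicates 1 (0.0723) or 3 (0.106) or *ncs2*∆*elp6*∆ replicates 1 (0.156) or 3 (0.0755). *PAN2*, its catalytic partner, was at 195, 274 and 175 CPM in the wild type, at 202, 170.4 and 245 in *hel2*∆, at 239, 184 and 229 in *ncs2*∆*elp6*∆ and 212, 201 and 195 in the triple mutant. Its log2 difference in *ncs2*∆*elp6*∆ was 0.02 with a 95% interval from -0.45 to 0.49.

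The rest of Ccr4-Not gave no call. *CCR4*, the other nuclease of the complex, was at 368, 363 and 320.4 CPM in the wild type and 371, 307 and 396 in *hel2*∆. It was at 382, 199 and 309.9 CPM in *ncs2*∆*elp6*∆ and 313, 288 and 341 in the triple mutant. *CDC39*, the member with the most reads after *LSM2*, was at 1012, 1321 and 1019 CPM in the wild type and 1043, 1079 and 1249 in *hel2*∆. It was at 1278, 1032 and 1239.7 CPM in *ncs2*∆*elp6*∆ and 1099, 1159 and 1190.1 in the triple mutant, and its 4 strain means differed by less than the SD of the wild type. *CAF130*, a subunit of the complex, was at 112 ± 22.5, 96.8 ± 37.2, 88.8 ± 15.6 and 90.7 ± 8.91 CPM in the same order of strains. Summed over its 9 genes, Ccr4-Not stood at 2650 ± 155 CPM in the wild type and 2455 ± 205 in *ncs2*∆*elp6*∆, with overlapping libraries.

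In the exosome and SKI group, *RRP45* (YDR280W, chromosome IV, 1020747 to 1021664), a subunit of the exosome's non-catalytic ring, was the only member called in *ncs2*∆*elp6*∆. It was at 59.0, 34.2 and 72.8 CPM in the wild type and 10.9, 22.7 and 57.3 in *hel2*∆. It was at 123, 178 and 80.5 CPM in *ncs2*∆*elp6*∆ and 121, 98.2 and 57.5 in the triple mutant. The *ncs2*∆*elp6*∆ libraries lay above those of the wild type, by 1.21 on the log2 scale (SE 0.40, adjusted p = 0.0217). The call was lost with DESeq2 (adjusted p = 0.0513), with all libraries thinned to the smallest (0.163), and without wild-type replicate 2 (0.103) or *ncs2*∆*elp6*∆ replicate 2 (0.110). In the triple mutant against *hel2*∆ the difference was 1.45 (SE 0.48, adjusted p = 0.0447), from 15 and 70 reads. It was not called without wild-type replicate 3, *hel2*∆ replicates 1 or 2, *ncs2*∆*elp6*∆ replicate 1 or triple mutant replicates 1 or 2, with adjusted p-values from 0.0501 to 0.277, and it was 2.53 without *hel2*∆ replicate 3. DESeq2, the replicate block, thinning and a fit to only these strains lost it too.

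*SKI3* (YPR189W, chromosome XVI, 912664 to 916962) was called only in the triple mutant against *hel2*∆. Beside the values given above, it was at 315, 256 and 286 CPM in *ncs2*∆*elp6*∆ and 192, 218 and 288 in the triple mutant. All triple mutant libraries lay below those of *hel2*∆ but overlapped those of the wild type, and the difference from *hel2*∆ was -0.67 (SE 0.22, adjusted p = 0.0440). The call was kept in only 5 of the 12 fits that leave out a library, those without wild-type replicates 1 or 2, *ncs2*∆*elp6*∆ replicates 1 or 2 or triple mutant replicate 3. In the others the adjusted p reached 0.189, and 6 of 9 other settings lost the call. *SKI2*, the helicase of the complex, was at 295, 308 and 306 CPM in the wild type, at 328, 295 and 239 in *hel2*∆, at 307, 256 and 346 in *ncs2*∆*elp6*∆ and 434, 262 and 491 in the triple mutant, with no call.

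The exosome's nucleases gave no call. *DIS3*, its catalytic subunit, was at 145, 260.0 and 167 CPM in the wild type, at 197, 273 and 219 in *hel2*∆, at 135, 214 and 125 in *ncs2*∆*elp6*∆ and 171, 186 and 186 in the triple mutant. *RRP6*, the nuclear exonuclease, was at 259, 198 and 240.3 CPM in the wild type, at 213, 182 and 219 in *hel2*∆, at 255, 229 and 229 in *ncs2*∆*elp6*∆ and 161, 255 and 212 in the triple mutant. Strains overlapped for both genes, except that *DIS3* in the triple mutant lay below *hel2*∆ (log2 -0.29, adjusted p = 0.483) and that *RRP6* in *ncs2*∆*elp6*∆ lay above *hel2*∆, a pair that was not tested. The log2 differences in *ncs2*∆*elp6*∆ were -0.23 for *DIS3* (95% interval -0.77 to 0.31) and 0.02 for *RRP6* (95% interval -0.42 to 0.47).

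Over all members, in the triple mutant against the wild type 2 of 37 members were called, *EDC1* higher and *XRN1* lower, beside 11.1% of all genes (4.85% higher and 6.22% lower). Against *hel2*∆ 4 of 37 were called, *EDC1* and *RRP45* higher and *XRN1* and *SKI3* lower, beside 14.6% of all genes (6.42% higher and 8.14% lower). At an unadjusted p under 0.05 these were 6 and 10 members, beside 25.6% and 29.1% of all genes. *EDC1* was among the tested genes only because of its reads in strains without U34 modification. The comparison with the wild type asks what losing U34 modification and *HEL2* together does, and that with *hel2*∆ what losing U34 modification does where *HEL2* is absent from both strains. The median log2 fold change of the members was -0.0046 and -0.0097 in these comparisons, beside 0.02 and 0.05 over all genes. Libraries of the triple mutant lay wholly above those of the wild type for 3 tested members and wholly below for 2, beside 13.6% and 12.8% of all genes. They lay wholly above those of *hel2*∆ for 7 and wholly below for 6, beside 16.5% and 15.4%. The 95% interval lay within a 2-fold change for 23 members against the wild type and 20 against *hel2*∆, beside 45.5% and 40.5% of all genes.

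The 12 members left untested had few reads: *DCP1*, *LSM3*, *LSM5*, *LSM6*, *LSM7*, *CDC36*, *SKI6*, *RRP40*, *RRP42*, *RRP46*, *MTR3* and *LRP1*. Their spans run from 261 to 798 bp, a range that also holds 5 tested members, and each had 14 to 95 reads in all 12 libraries together, against 92 to 5139 reads for the tested members. *LSM5*, another ring subunit, had 0 reads in the 3 wild-type libraries, 4 in *hel2*∆, 20 in *ncs2*∆*elp6*∆ and 7 in the triple mutant. Its level in *ncs2*∆*elp6*∆ was 4.04-fold a floor of 3 reads over the wild-type group, with no allowance for counting error in its 20 reads. The 95% counting interval of the ratio to the wild type began at 2.99. Without the filter on low counts *LSM5* was the only 1 of the 12 called in that comparison (edgeR adjusted p = 0.00174, 6302 genes). The share of all genes called in that fit is not given here. With the filter, 30.1% of 3378 genes were called. *LSM5* shares 239 bp with the annotated gene YER145C-A. *LRP1*, the nuclear partner of Rrp6 and an RQC target in the study's list, had 1 wild-type read, 2 in *hel2*∆, 14 in *ncs2*∆*elp6*∆ and 15 in the triple mutant, a ratio of *ncs2*∆*elp6*∆ to wild type of 8.48 (95% counting interval 1.29 to 359). *LSM7* had 4, 3, 5 and 2 reads and *SKI6* had 3, 1, 9 and 9 reads in the same order. Intervals here cover counting error only, and the floor stands in for the wild-type count alone.

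A second list of 26 decay factors outside the 49, such as decapping scavengers, the TRAMP and Nrd1 complexes and poly(A)- and Puf-type RNA-binding proteins, had 19 genes with enough reads. In *ncs2*∆*elp6*∆ against the wild type 2 of these 19 were called, beside 30.1% of all genes. *PBY1*, a component of P-bodies, was at 256 ± 46.5 CPM in the wild type and 111 ± 17.7 in *ncs2*∆*elp6*∆ (log2 -1.19, SE 0.25, adjusted p = 5.86e-04). *PUB1*, which encodes a poly(U)-binding protein, was at 453 ± 68.3 and 668 ± 74.6 CPM (log2 0.55, SE 0.21, adjusted p = 0.0444), a call lost without wild-type replicates 2 or 3, *hel2*∆ replicate 2, *ncs2*∆*elp6*∆ replicates 1 or 3 or triple mutant replicate 1, and also with DESeq2 (0.0657), with the replicate block (0.0612), with no count filter and in a fit to only these strains. *PBY1* was also called higher in the triple mutant than in *ncs2*∆*elp6*∆ (log2 0.83, SE 0.25, adjusted p = 0.0450), but that call was kept only without wild-type replicate 2, *hel2*∆ replicate 1 or triple mutant replicate 2 among the 12 fits that leave out a library, and 8 of 9 other settings lost it, the replicate block among them (0.0645).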

How the data were processed

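Counts of 5PSeq reads per open reading frame were taken as the authors deposited them, without normalization, for 12 libraries. Per the labels and the study's methods, adapters were trimmed with cutadapt, reads from noncoding RNA were removed, the rest were mapped on the sense strand of open reading frames (the submitters' processing notes name STAR 2.5.3a and Bowtie 1.2.3, build sacCer3), uniquely mapped reads were kept and PCR duplicates were removed by their random barcodes with UMI-tools. Reads shared by near-identical genes are therefore missing. Columns were matched to strains and replicates by their names. Gene spans came from the RefSeq annotation of assembly R64, which matched 5772 of 6302 genes.

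Library totals ran from 104202 to 415323 reads. The test was the quasi-likelihood F test of edgeR 4.0.16 under R 4.3.3 after TMM scaling (filterByExpr with a minimum count of 10, glmQLFit and glmQLFTest, strain as the only factor, all 12 libraries, 3378 genes, Benjamini-Hochberg adjusted p under 0.05). The standard error is the size of the log2 fold change divided by the square root of F. The scripts were tested on simulated data. Per-library values were printed for members called in any comparison and for central or catalytic factors. They were also printed for members the study lists as RQC targets and for the highest and lowest member of each group, with some exceptions. *CAF130* was given as mean and SD, and *LRP1*, *LSM7* and *SKI6* as reads summed over each strain. Members and lists were chosen with earlier results of these data known. Alternatives were DESeq2 1.42.0, 2 other count filters, 2 other normalizations, a replicate block, only the strains compared, and leaving out each library. DESeq2 without independent filtering, thinning to 104202 reads and leaving out *LSM2* were chosen after seeing the data. The study fitted 5PSeq together with RNA-seq counts, which were not used here. A planned search of promoter motifs was not run.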

Additional observations from a re-analysis of the deposited data

How the results depend on the processing

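No direction of a called member was reversed under any alternative run. A filter of at least 10 counts in every library left 21 members tested, without *EDC1*, *LSM1* and *RRP45*. With it *ncs2*∆*elp6*∆ against the wild type had 4 members and 553 genes called. The triple mutant had 1 and 241 against the wild type and 2 and 308 against *hel2*∆, and the interaction had 0 genes. The number of genes tested with that filter is not given here, so these counts cannot be read as shares. The triple mutant against the wild type also had only 1 member called with DESeq2 without independent filtering, no count filter, upper-quartile scaling, library totals, the replicate block, thinning and only the strains compared. The shares of all genes called in these fits are not given here, and in the main fit the share was 11.1%. With no count filter the member median of the triple mutant against the wild type was 0.16. In that fit 311 genes were called in the triple mutant against *ncs2*∆*elp6*∆ and 26 in the interaction, where DESeq2 called 41. After thinning, 238, 122, 293 and 2 genes were called in the triple mutant against the wild type, *ncs2*∆*elp6*∆ and *hel2*∆ and in the interaction, and the median in the second was -0.18. Only the strains compared gave 126 genes there, and without *LSM2* 0 members were called there. The fit to only the strains compared was not possible for the interaction.

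Scaling by library totals alone raised the median of all genes by 0.25 in *ncs2*∆*elp6*∆ and by 0.15 in the triple mutant, both against the wild type, and by 0.18 in the triple mutant against *hel2*∆. Member medians became 0.35, 0.15 and 0.17. The share of calls that were higher went from 44.6% to 62.9%, from 43.9% to 62.9% and from 44.1% to 65.9% of all called genes. Called members kept their sign.

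Leaving out each library in turn gave, for the comparisons of *hel2*∆, *ncs2*∆*elp6*∆ and the triple mutant with the wild type, 0 to 0, 6 to 8 and 1 to 2 members and 1 to 3, 775 to 1099 and 145 to 501 genes called. For the triple mutant against *ncs2*∆*elp6*∆ and *hel2*∆ and for the interaction it gave 0 to 3, 1 to 6 and 0 to 1 members and 38 to 399, 129 to 650 and 1 to 92 genes. These fits tested 36 to 38 members each, and their numbers of genes tested are not given here. Without triple mutant replicate 2 its genes called against the wild type and *hel2*∆ were fewest and against *ncs2*∆*elp6*∆ most numerous, and without replicate 3 the reverse held. Deviations of same-numbered libraries correlated at 0.08, 0.27 and 0.22 between the triple mutant and *ncs2*∆*elp6*∆. There, every triple mutant library correlated best with its own number. In the other comparisons the values lay between -0.22 and 0.04. The labels give only a number, and whether same-numbered libraries shared a batch was not tested. With the replicate block 0, 7, 1, 1, 3 and 0 of 37 members were called in the 6 comparisons, in the order above. The counts of all genes called with the block are not given here. In the main fit the shares of all genes were 0.0888%, 30.1%, 11.1%, 5.68%, 14.6% and 0.0296% in that order. Members with few reads (33 per library for the median tested member) limit every comparison, and 12 of 49 could not be tested.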

Other observations

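Shorter genes tended to have higher log2 fold changes in *ncs2*∆*elp6*∆ against the wild type: Spearman's rho of gene span and log2 fold change was -0.26 over 3360 genes and -0.38 over the 37 tested members, as a description across genes, which share libraries and are not independent replicates. In *hel2*∆ against the wild type the values were 0.02 and 0.02. The untested members, with spans of 261 to 798 bp, had a higher mean CPM in *ncs2*∆*elp6*∆ than in the wild type for 9 of 12. The matching share over all untested genes was not computed, so this count has no background to be read against. The summed reads of *XRN1*, *RAT1* and *RAI1* were 1074 ± 143 CPM in the wild type, with 1115 ± 54.1 in *hel2*∆, 788 ± 59.9 in *ncs2*∆*elp6*∆ and 841 ± 29.1 in the triple mutant (SD, n = 3). The lower sum in *ncs2*∆*elp6*∆ followed *XRN1*, with means of 645 CPM in the wild type and 363 there. *RAT1* had 389 and 370, and *RAI1* 39.6 and 55.4. The SKI genes with *SKI7* summed to 656 ± 48.4, 738 ± 59.6, 685 ± 54.1 and 724 ± 157, overlapping in all strains. The NMD genes summed to 357 ± 63.3 CPM in the wild type and, with no overlap, to 455 ± 22.7 in *ncs2*∆*elp6*∆.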
